A study of Mus musculus with 18 samples.

Results

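The receptors and enzymes through which phagocytes sense and clear extracellular nucleotides were followed in 3 populations of small intestinal phagocytes. The 10 genes were chosen by name: the P2Y receptors P2ry14, P2ry6, P2ry12 and P2ry13, the P2X channels P2rx4 and P2rx7, the ectoenzymes Entpd1 and Nt5e, and the adenosine receptors Adora2a and Adora2b. Of these, 8 were measured, each by 1 probe annotated to its symbol alone, among 22180 genes in all. Adora2a and Adora2b were not analysed here. The choice of the 10 genes was made with earlier results of these data known. All cells came from VDTR mice, whose villin promoter puts a GFP-tagged receptor for diphtheria toxin (GFP, green fluorescent protein) on the intestinal epithelium, and all mice, of both sexes, had toxin injected into the peritoneum (2 ng per kg) 4 hours before death. Every group, GFP-minus cells included, thus carries the same allele and the same toxin.

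Live CD45+ CD11c+ MHCII+ cells were gated as CD103 dendritic cells (DCs; CD103+ CD24+), as macrophages carrying CD103, CD11b and CD64, or as macrophages carrying CD11b and CD64. The last are called macrophages without CD103 below because their gate names no CD103; the labels do not say that CD103-positive cells were removed. GFP in a phagocyte is read as a sign that it took up epithelial material. GFP-plus and GFP-minus cells of each population were collected apart, giving 6 groups of 3 arrays. The labels do not say whether the 3 arrays of a group came from separate mice, so p-values measure the spread between these samples, which may be technical.

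Dying cells release ATP, UTP and their breakdown products. P2X receptors are ion channels opened by ATP, and P2Y receptors are G protein-coupled receptors for different nucleotides. CD39, the product of Entpd1, strips phosphates from ATP and ADP to give AMP, and CD73, the product of Nt5e, turns AMP into adenosine, which acts on its own receptors and generally dampens inflammation.

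The log2 values are centred: 0 is the median of a probe across all 18 arrays, which leaves differences between groups readable and levels not. Whether a probe stood above background in a given group cannot be read from such values, nor can the level of one gene be set against that of another. A gene was called where its adjusted p was under 0.05 in limma (Benjamini-Hochberg over all 22180 genes). The transcripts of the gating markers set the DCs apart from both macrophage populations: in DCs, Itgae (CD103) was higher by 4.49 and 5.68 on the log2 scale than in the macrophages with and without CD103, Cd24a (CD24) by 4.46 and 5.20, and Fcgr1 (CD64) differed by -4.87 and -4.72. The gate that names CD103 among the macrophages was not matched by its transcript on every array. In the macrophages labelled with CD103, Itgae was at -0.44, -0.15 and 0.05 in GFP-plus and at 3.44, -0.43 and 2.66 in GFP-minus cells, against -0.32, -0.44 and -0.29 in GFP-plus and -0.53, -0.39 and -0.05 in GFP-minus cells of the macrophages without it. High Itgae was thus seen on 2 of the 6 arrays labelled with CD103, both GFP-minus, and the populations differed by 1.19 ± 0.46 without passing (adjusted p = 0.79, limma). The population keeps its label below, and each DC and interaction result that uses it is also given against the macrophages without CD103 alone. Estimated array weights ran from 0.352 to 2.52. The lowest belonged to GFP-plus replicate 1 of the macrophages with CD103, and GFP-plus DC replicate 1 had the second lowest, 0.414.

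P2Y receptor genes lie in a cluster on mouse chromosome 3 in the order P2ry14, P2ry13 and P2ry12, and all lie within the span of the larger gene Med12l. P2rx7 and P2rx4 are neighbours on chromosome 5. The promoter windows below, from RefSeq (build GRCm38.p6; 250 bases before to 50 after a gene's start, 5′ to 3′ on the gene's strand), are shown because P2ry13, P2ry12 and P2rx4 each have 1 listed start and shared a pattern across the populations, while P2ry14, from the same chromosome 3 cluster, did not follow it. For P2ry14 the most upstream of 4 listed starts is given. Capitals mark matches on either strand to GAGGAA, a core bound by the myeloid factor PU.1, or to TGANTCA, the AP-1 motif.
P2ry14 (chr3:59153443-59153742, minus strand): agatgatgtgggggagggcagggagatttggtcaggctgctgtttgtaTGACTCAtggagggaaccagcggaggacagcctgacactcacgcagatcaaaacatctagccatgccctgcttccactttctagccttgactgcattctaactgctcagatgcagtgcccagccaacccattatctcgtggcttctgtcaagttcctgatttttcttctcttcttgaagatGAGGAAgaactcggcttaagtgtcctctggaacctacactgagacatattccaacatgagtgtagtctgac
P2ry13 (chr3:59210833-59211132, minus strand): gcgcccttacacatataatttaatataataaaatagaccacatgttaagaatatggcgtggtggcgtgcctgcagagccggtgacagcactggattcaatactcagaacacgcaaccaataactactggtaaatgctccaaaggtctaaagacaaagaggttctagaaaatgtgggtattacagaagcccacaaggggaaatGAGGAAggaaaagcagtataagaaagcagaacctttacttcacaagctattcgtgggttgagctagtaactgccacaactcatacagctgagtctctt
P2ry12 (chr3:59262936-59263235, minus strand): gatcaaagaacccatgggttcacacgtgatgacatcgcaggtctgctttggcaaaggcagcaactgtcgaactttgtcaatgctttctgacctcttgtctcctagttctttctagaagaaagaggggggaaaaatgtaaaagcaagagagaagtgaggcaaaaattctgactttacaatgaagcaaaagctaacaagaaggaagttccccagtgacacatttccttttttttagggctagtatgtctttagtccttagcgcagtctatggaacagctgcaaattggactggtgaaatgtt
P2rx4 (chr5:122707294-122707593, plus strand): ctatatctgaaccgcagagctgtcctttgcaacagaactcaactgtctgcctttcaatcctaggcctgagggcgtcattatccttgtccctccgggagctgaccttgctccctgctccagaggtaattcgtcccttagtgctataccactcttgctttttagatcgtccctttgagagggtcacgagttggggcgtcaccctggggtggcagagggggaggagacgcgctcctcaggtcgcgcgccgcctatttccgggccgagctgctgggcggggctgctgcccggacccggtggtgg

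The P2ry14 window held 1 match to GAGGAA at -21 and 1 to TGANTCA at -202, counted from the gene's first base, and the P2ry13 window held 1 match to GAGGAA at -48. The windows of P2ry12 and P2rx4 held neither. P2rx7 shared their pattern across the populations but has 2 listed starts and is not shown. Each of its windows held 1 match to GAGGAA, and that of the first start also held 1 to TGANTCA. The windows of the other P2ry14 starts, some of them overlapping, also held 1 match to GAGGAA each, and that of start 2 held 1 to TGANTCA. Among 32851 promoter windows of this length, 28.3% hold GAGGAA and 7.81% hold TGANTCA. The matches are a description of these letters, and the arrays do not show which start was in use.

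The first question was how the DCs differ from the macrophages. Of the 8 measured members, 5 were lower in DCs than in each macrophage population: the P2Y receptor genes P2ry13, P2ry12 and P2ry6 and the ATP-gated channel genes P2rx4 and P2rx7. The differences ran from -2.65 to -4.47 on the log2 scale, and no member was called higher in DCs. P2ry14, Entpd1 and Nt5e did not pass in either comparison. Against the macrophages with CD103, 5 of 8 members were called, all lower, beside 7.93% of all genes called in either direction and 5.33% called lower. Against the macrophages without CD103 it was again 5 of 8, all lower, beside 8.12% and 5.94%. Both comparisons share the same 6 DC arrays, so they are not independent of each other.

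P2ry13 encodes a receptor for ADP and showed the widest gap of the members. Its values were -4.21, -3.33 and -4.16 on the GFP-plus and -3.98, -3.87 and -3.46 on the GFP-minus DC arrays, against -0.17, 0.76 and 1.13 on the GFP-plus and 0.22, 0.24 and 0.07 on the GFP-minus arrays of macrophages with CD103. On arrays of macrophages without CD103 they were 0.94, 1.36 and 1.27 in GFP-plus and -0.07, -0.48 and 0.76 in GFP-minus cells. Every DC array lay below every macrophage array. The difference was -4.21 ± 0.25 (SE; 18.5-fold lower) against macrophages with CD103 and -4.47 ± 0.25 (22.1-fold lower) against those without, with adjusted p-values of 2.23e-08 and 1.09e-08 in limma.

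P2rx4 encodes an ATP-gated cation channel found at the surface and in lysosomes. It stood at -2.82, -3.43 and -3.73 in GFP-plus and -4.00, -2.11 and -3.34 in GFP-minus DCs, and all 12 macrophage arrays lay between -0.21 and 0.88. DCs were lower, with differences of -3.45 ± 0.27 and -3.71 ± 0.27 from macrophages with and without CD103 (adjusted p = 5.89e-07 and 2.54e-07, limma). Its neighbour P2rx7, whose channel responds to high ATP and triggers the inflammasome in macrophages, was at -3.49, -2.71 and -3.48 in GFP-plus and -2.86, -2.08 and -2.96 in GFP-minus DCs. All 12 macrophage arrays lay between -0.78 and 1.12 for P2rx7, above every DC array. The difference of DCs was -3.58 ± 0.25 against macrophages with CD103 and -3.00 ± 0.25 against those without (adjusted p = 1.55e-07 and 1.1e-06, limma).

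P2ry12, the ADP receptor gene known from platelets and microglia, was at -3.07, -3.14 and -3.09 in GFP-plus and -2.99, -2.16 and -1.17 in GFP-minus DCs. The macrophage arrays ran from -1.89 to 1.50, and the lowest, GFP-minus replicate 2 of the macrophages with CD103, an array of low weight (0.437), overlapped the DC range. DCs were lower, with differences of -2.89 ± 0.45 and -3.31 ± 0.45 (adjusted p = 0.000599 and 0.000157, limma). P2ry6 encodes a receptor for UDP, described as a cue for engulfment in microglia. Within each DC gate its values had the largest SD of the 8 members, at -4.58, -3.29 and 0.33 in GFP-plus and -2.11, -3.97 and -1.85 in GFP-minus cells, so that 1 GFP-plus array stood among the macrophages, which ran from -0.28 to 1.10. The difference for P2ry6 was -2.96 ± 0.63 and -2.65 ± 0.63 (adjusted p = 0.00822 and 0.016, limma), and without that array -3.67 and -3.36. P2ry6 no longer passed without the 4 arrays of lowest weight (adjusted p = 0.0557 and 0.0885, limma), nor against macrophages without CD103 when only the arrays of these 2 populations were fitted (0.0522).

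All DC and all macrophage arrays were on separate sides for 3 members against macrophages with CD103 (P2ry13, P2rx4 and P2rx7; 3.83% of all genes, 2.72% with DCs lower) and for 4 against those without (these 3 and P2ry12; 5.05% of all genes, 3.64% with DCs lower). Macrophage markers moved with these members. All 9 measured macrophage markers were lower in DCs than in the macrophages with CD103 and 8 of 9 were lower than in those without, with list means of -4.85 to -3.48 over the DC arrays and -0.10 to 1.03 over the macrophage arrays. Other lists were called in part in the same comparisons. Of 7 CD103 DC markers, 4 were higher in DCs than in macrophages with CD103 and 3 were higher than in those without. Their list mean was 1.60 to 1.91 over the DC arrays and -0.85 to 0.03 over the macrophage arrays. Of 14 lymphocyte markers, 4 were lower and 1 higher in DCs than in macrophages with CD103, and 2 were higher than in those without. Of 6 monocyte markers, 2 and 1 were lower, and of 10 mature DC markers, 5 and 4 were higher and 1 was lower in each comparison. Of 7 B and plasma cell markers, 1 was lower in each and 2 were higher against macrophages without CD103. Of 7 secretory epithelium markers, 1 was higher and 1 lower in each, and of 7 mast cell and eosinophil markers, 1 was higher in each. The part of these markers in the result was not tested. In bulk samples, fewer cells of a type and less RNA per cell cannot be told apart.

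**Figure D1:**
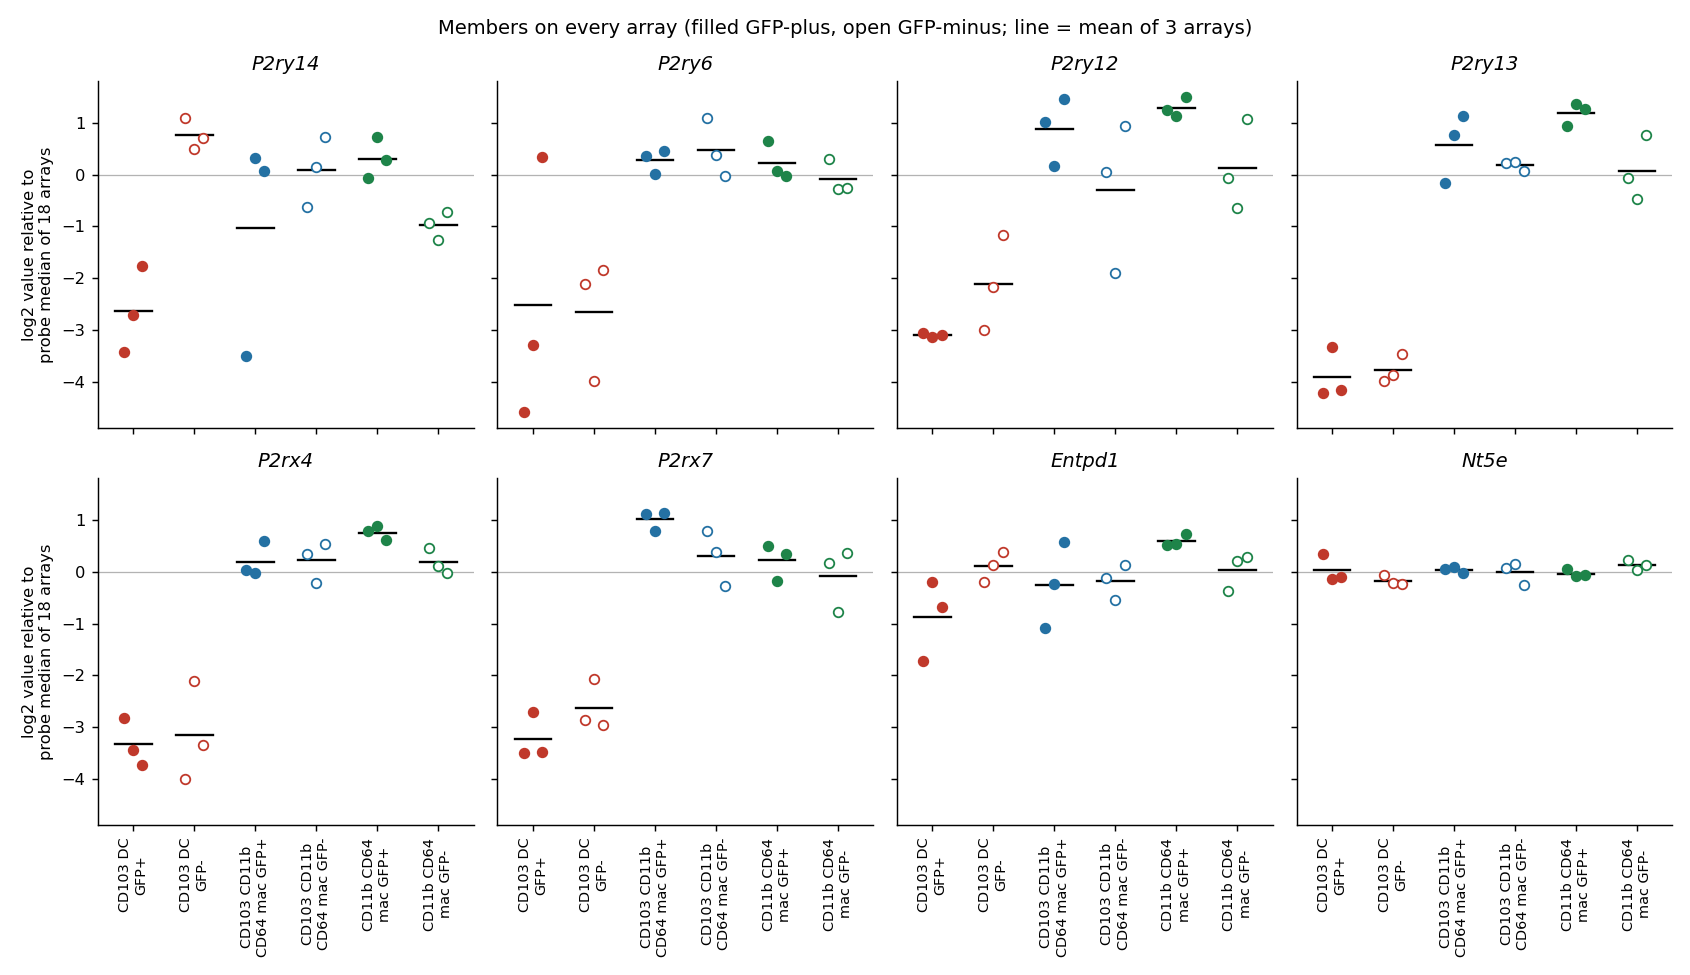
Each panel plots 1 member's log2 value relative to its probe's median (vertical axis) on every array of the 6 groups (horizontal axis), filled for GFP-plus and open for GFP-minus cells, with a line at the mean of 3 arrays. P2ry13, P2rx4 and P2rx7 lie lower on all DC arrays than on all macrophage arrays, P2ry14 is low in GFP-plus DCs, where GFP-minus DCs run from 0.49 to 1.08, and Nt5e stays between -0.26 and 0.34 on all 18 arrays.

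**Figure D2:**
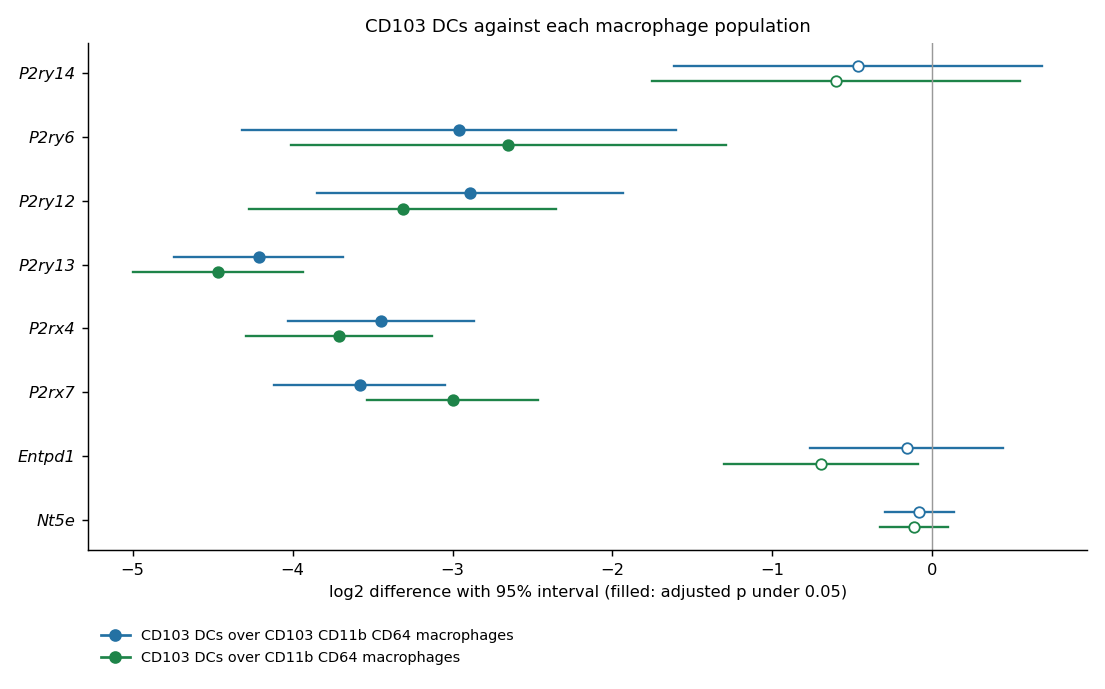
Points give the log2 difference of CD103 DCs from macrophages with CD103 (blue) and without it (green), each averaged over both GFP gates, with 95% intervals; filled points have an adjusted p under 0.05 in limma. P2ry6, P2ry12, P2ry13, P2rx4 and P2rx7 are filled and lie between -2.65 and -4.47.

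The members that did not pass were less far apart. Entpd1 differed by -0.16 (95% interval -0.77 to 0.44) from macrophages with CD103 and by -0.70 (-1.30 to -0.09) from those without, with adjusted p-values of 0.848 and 0.182 in limma. Nt5e gave -0.08 (-0.30 to 0.13) and -0.11 (-0.33 to 0.10). P2ry14, a receptor gene for UDP-glucose and other UDP-sugars, gave -0.46 (-1.61 to 0.69) and -0.60 (-1.75 to 0.55), averages over a pair of DC gates that differed from each other. Without GFP-plus replicate 1 of the macrophages with CD103, where P2ry14 stood at -3.49, the difference from that population was -1.08 and passed (adjusted p = 0.0394, limma).

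The macrophage populations with and without CD103 were next set against each other. No member passed in limma, where 0.0721% of all genes did, and P2rx7 alone had an unadjusted p under 0.05 (5.51% of all genes). P2rx7 averaged 0.65 with CD103 and 0.07 without, a difference of 0.58 (95% interval 0.05 to 1.12; adjusted p = 0.857, limma). For the other 7 members the intervals included 0. The widest was that of P2ry6 (-1.05 to 1.67) and the narrowest that of Nt5e (-0.25 to 0.18). Of 9 macrophage markers 1 was called, higher with CD103, while 7 differences lay below 0, and of 14 lymphocyte markers 1 was called higher. Cd163 was at 5.34, 4.31 and 4.27 in GFP-plus and 2.85, 0.63 and 3.79 in GFP-minus macrophages with CD103. In those without it was at 0.55, 0.38 and -0.13 and at -0.35, -0.12 and -0.14. The part of these markers was not tested.

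The GFP-plus cells were then set against the GFP-minus cells of the same gate. In DCs, P2ry14 was the 1 member of 8 that passed, lower in GFP-plus cells, beside 1.58% of all genes called in either direction and 1.26% called lower. P2ry14 was at -3.42, -2.70 and -1.77 in GFP-plus DCs and at 1.08, 0.49 and 0.70 in GFP-minus DCs. GFP-minus DCs had the highest mean of the 6 groups (0.76 ± 0.30, SD, n = 3) and GFP-plus DCs the lowest (-2.63 ± 0.83), with no overlap between them. The log2 difference was -3.39 ± 0.76 (SE; 95% interval -5.01 to -1.76; 10.5-fold lower), with an adjusted p of 0.042 in limma.

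The direction of P2ry14 in DCs was the same under all 15 alternatives, and its call was not. Without any 1 of the 6 DC arrays its adjusted p lay between 0.052 and 0.137 (limma), with differences of -3.82 to -2.99. It also missed the threshold after quantile normalization (-2.23, adjusted p = 0.249) and when only DC arrays were fitted (-3.39, adjusted p = 0.0604).

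Marker lists of other cells and states were apart in the same contrast. Markers of mature, migrating DCs were higher in GFP-plus DCs: 5 of 10 were called, and the list mean was 1.82 to 2.34 on GFP-plus against -0.01 to 0.18 on GFP-minus arrays. Of 14 T and innate lymphocyte markers 1 was called, Gzma, at -3.87 ± 0.47, and the list mean was -0.29 to 0.04 in GFP-plus against 0.36 to 0.99 in GFP-minus DCs. Enterocyte markers had means of 0.36 to 0.72 in GFP-plus against -0.28 to 0.00 in GFP-minus DCs, with 0 of 10 called in limma and 4 at an unadjusted p under 0.05. Of 7 secretory epithelium markers 1 was called, Defa24, a Paneth cell defensin gene, which was at 4.39, 3.87 and 4.53 in GFP-plus and at -0.34, -0.07 and 0.19 in GFP-minus DCs, and the list mean was 0.23 to 0.63 against -0.44 to -0.38. Of 7 B and plasma cell markers 1 was lower, with means of -0.37 to -0.24 in GFP-plus against 0.15 to 0.42 in GFP-minus DCs. Of 9 macrophage markers 1 was lower (-4.85 to -4.22 against -4.41 to -3.48), and of 6 monocyte markers 0 were called (-1.20 to -0.59 against -0.23 to 0.34; 3 at an unadjusted p under 0.05). The part of these cells and states in the P2ry14 result was not tested. Gpr171, the gene before P2ry14 on the chromosome and named after its values were seen, differed by -1.22 ± 0.30 without passing (adjusted p = 0.0578, limma), and Med12l, which spans the receptors, differed by -0.26 (95% interval -0.85 to 0.32).

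Among the other members in DCs, Entpd1 was at -1.71, -0.20 and -0.69 in GFP-plus and at -0.19, 0.14 and 0.38 in GFP-minus cells. Its GFP-plus arrays lay below its GFP-minus arrays by a narrow margin, and the difference of -0.98 ± 0.40 had an unadjusted p of 0.0278 and did not pass (adjusted p = 0.253, limma). P2ry12 gave -0.99 (95% interval -2.35 to 0.36), again with separate arrays. Separate GFP-plus and GFP-minus arrays were thus seen for 3 of 8 members (P2ry14, Entpd1 and P2ry12), beside 20.1% of all genes and 11.5% with GFP-plus lower. P2rx7 gave -0.59 (-1.35 to 0.17), P2rx4 -0.18 ± 0.38 (SE), P2ry13 -0.13 (-0.87 to 0.62) and Nt5e 0.21 (-0.09 to 0.51). P2ry6 gave 0.13 (-1.79 to 2.06), a value whose sign depended on single arrays. Without GFP-plus replicate 3 it was -1.29 (adjusted p = 0.304, limma), and without GFP-minus replicate 2 it was -0.53 (adjusted p = 0.900, limma).

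In macrophages with CD103, CD11b and CD64 no member passed in limma, where 0.0541% of all genes did, and none had an unadjusted p under 0.05, against 9.2% of all genes. P2rx7 came nearest. It was at 1.11, 0.79 and 1.12 in GFP-plus and at 0.79, 0.37 and -0.27 in GFP-minus macrophages, and its difference was 0.71 (95% interval -0.05 to 1.47; adjusted p = 0.577, limma). P2rx7 was the 1 member of 8 whose GFP-plus and GFP-minus arrays did not overlap, beside 13% of all genes and 7.54% with GFP-plus higher, by a margin of under 0.01. P2ry12 gave 1.17 (-0.19 to 2.52) and P2ry13 0.39 (-0.35 to 1.14). P2ry14 gave -1.12 (-2.74 to 0.51), from values of -3.49, 0.33 and 0.07 in GFP-plus and -0.62, 0.15 and 0.73 in GFP-minus cells. The -3.49 came from the array of lowest weight, and without it the difference was 0.11. Cd24a was at -1.86, -0.65 and -0.56 in GFP-plus and at 1.65, -1.09 and 1.37 in GFP-minus cells, high on the same 2 GFP-minus arrays as Itgae, and neither gene passed (adjusted p = 0.354 for Cd24a and 0.282 for Itgae, limma). Lymphocyte and monocyte list means were apart in this contrast, with 1 of 14 and 0 of 6 markers called (7 and 4 at an unadjusted p under 0.05): the lymphocyte list mean was -0.20 to 0.45 on GFP-plus against 1.05 to 2.67 on GFP-minus arrays, and the monocyte list mean was -0.63 to 0.27 against 0.72 to 1.40. The enterocyte list mean was 0.08 to 0.55 against -0.24 to 0.07, and the macrophage list mean 0.70 to 1.03 against 0.11 to 0.68, with 0 of 10 and 0 of 9 called in limma and 2 of each at an unadjusted p under 0.05. Their part was not tested.

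In macrophages with CD11b and CD64 no member passed either, beside 0.0271% of all genes, and P2ry13 alone had an unadjusted p under 0.05 (6.16% of all genes). P2ry13 stood at 0.94, 1.36 and 1.27 in GFP-plus and at -0.07, -0.48 and 0.76 in GFP-minus macrophages, a difference of 1.12 ± 0.35 (95% interval 0.37 to 1.87; unadjusted p = 0.00631, adjusted p = 0.564, limma). The GFP-plus arrays were all above the GFP-minus arrays for 5 of 8 members, P2ry14, P2ry12, P2ry13, P2rx4 and Entpd1, beside 9.63% of all genes, or 15.9% in either direction. P2ry14 was at -0.07, 0.72 and 0.28 in GFP-plus and at -0.94, -1.26 and -0.72 in GFP-minus cells, and differed by 1.28 (-0.34 to 2.91). P2ry12 differed by 1.17 (-0.19 to 2.52), P2rx4 by 0.57 (-0.25 to 1.39) and Entpd1 by 0.56 (-0.30 to 1.41). Of 6 monocyte markers 1 was called, lower, and the list mean was -0.82 to -0.40 on GFP-plus arrays against 0.80 to 1.46 on GFP-minus arrays. The macrophage list mean lay the same way as these members, at 0.48 to 0.54 in GFP-plus against -0.10 to 0.14 in GFP-minus cells, with 0 of 9 called in limma and 3 at an unadjusted p under 0.05. The enterocyte list mean was 0.16 to 0.44 against -0.29 to -0.14, with 0 of 10 called and 2 at an unadjusted p under 0.05. The part of these markers was not tested.

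**Figure D3:**
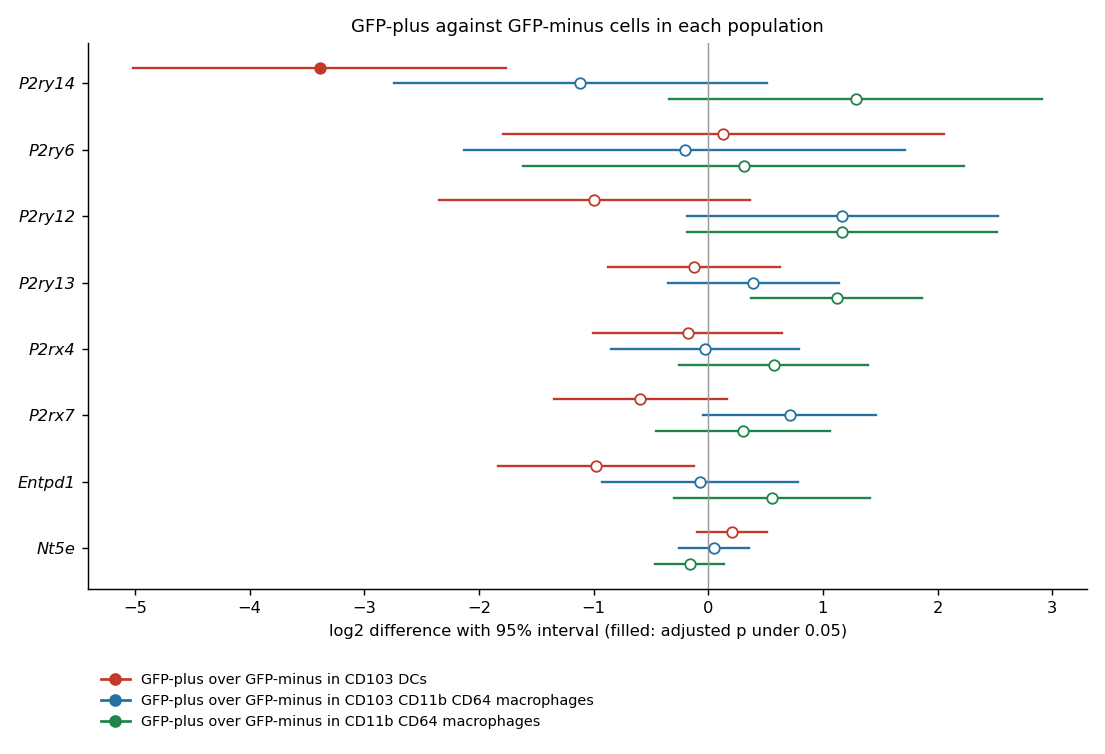
Points give the log2 difference of GFP-plus from GFP-minus cells in DCs (red), macrophages with CD103 (blue) and macrophages without it (green), with 95% intervals; the filled point has an adjusted p under 0.05 in limma. P2ry14 in DCs, at -3.39, is the 1 filled point, and in the macrophages without CD103 7 of 8 members lie above 0 and none passes.

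Averaged over both macrophage populations, the GFP difference passed for none of the members in limma (0.415% of all genes), and 2 had an unadjusted p under 0.05 (11.3% of all genes). These were P2ry13, at 0.76 ± 0.25 (unadjusted p = 0.00837, adjusted p = 0.222), and P2ry12, at 1.17 ± 0.45 (unadjusted p = 0.0204, adjusted p = 0.312). With array weights P2ry13 passed at 0.93 (adjusted p = 0.0302, limma), in a fit where 654 genes passed against 92 in the main fit. P2ry14 gave 0.08 (95% interval -1.07 to 1.23), a mean over opposite signs. The negative sign, in macrophages with CD103, rested on GFP-plus replicate 1, the array of lowest weight, without which the difference there was 0.11.

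Whether the GFP difference of DCs departs from that of macrophages was tested by an interaction term. Set against the mean of both macrophage populations, no member passed in limma (1.33% of all genes), and 4 had an unadjusted p under 0.05 (16.5% of all genes): P2ry14, P2ry12, P2rx7 and Entpd1. P2ry14 gave -3.47 ± 0.93 (adjusted p = 0.0815), P2ry12 -2.16 ± 0.77 (adjusted p = 0.172), Entpd1 -1.22 ± 0.49 (adjusted p = 0.223) and P2rx7 -1.10 ± 0.43 (adjusted p = 0.214). Without GFP-plus replicate 1 of the macrophages with CD103, P2ry14 passed at -4.09 (adjusted p = 0.00173, limma). In that fit 728 genes passed, against 295 in the main fit. Set against the macrophages without CD103 alone, in a contrast added after the values were seen, no member passed either (0.532% of all genes), and P2ry14, P2ry12, P2ry13 and Entpd1 had an unadjusted p under 0.05 (15.5% of all genes). P2ry13 gave -1.25 ± 0.49 there (adjusted p = 0.248, limma). P2rx7 gave -0.90 ± 0.50 there and no longer had an unadjusted p under 0.05 (unadjusted p = 0.0942, adjusted p = 0.41, limma).

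Ranked by group mean, the 5 members that part DCs from macrophages had both DC groups at the bottom. For P2ry13 the order was GFP-plus macrophages without CD103 (1.19 ± 0.22, SD, n = 3), GFP-plus macrophages with CD103 (0.57 ± 0.67), GFP-minus macrophages with CD103 (0.18 ± 0.09), GFP-minus macrophages without CD103 (0.07 ± 0.63), GFP-minus DCs (-3.77 ± 0.27) and GFP-plus DCs (-3.90 ± 0.50). Among neighbours in this order, only the step between the macrophage and the DC groups exceeded the spread within groups. P2rx7 was highest in GFP-plus macrophages with CD103 (1.01 ± 0.19) and lowest in GFP-plus DCs (-3.22 ± 0.45). P2rx4 was highest in GFP-plus macrophages without CD103 (0.76 ± 0.14) and again lowest in GFP-plus DCs (-3.33 ± 0.46). Nt5e had group means between -0.17 and 0.13, and Entpd1 between -0.87 and 0.60.

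Over the 18 arrays the genes with the pattern most like P2ry13 by Pearson's r were Hacd4 (r = 0.990), Abcc3 (0.988) and Acp2 (0.987). For P2rx4 they were Lgals9 (0.988), Gbp2b (0.984) and C1qc (0.980), and for P2rx7 Rgl1 (0.975), Stab1 (0.975) and Cd93 (0.974). For P2ry12 they were Rasgrp1 (0.963), Abcg3 (0.957) and Cd33 (0.955), and for P2ry6 Tlr1 (0.930), Cndp2 (0.929) and Gna12 (0.920). P2ry14 had less close matches in Rexo1 (0.885), Ube2d1 (0.884) and Ddx52 (0.884). These values were picked as the highest among all genes, and the 18 points share the division into 6 DC and 12 macrophage arrays.

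Of 32 other genes linked to nucleotide release, sensing, clearance or metabolism, here called other purinergic genes, 27 were measured. Against macrophages with CD103, 3 were lower in DCs and 1 was higher, with a median of -0.09 beside -0.02 over all genes, where the 8 members had a median of -2.93. Against macrophages without CD103, 5 were lower and none higher, with a median of -0.08 beside -0.03, and the members' median was -2.83. Of all genes, 7.93% were called against macrophages with CD103 (5.33% lower) and 8.12% against those without (5.94% lower). The members and the other genes were listed with earlier results of these data known, so this comparison of medians is not an independent one. Slc29a1, a nucleoside transporter gene, was lower, at -1.66 ± 0.16 and -1.53 ± 0.16 against macrophages with and without CD103. Panx1, whose channel releases ATP from cells, was lower, at -1.48 ± 0.43 and -2.40 ± 0.43, as was Pnp, which breaks down purine nucleosides, at -0.85 ± 0.24 and -0.95 ± 0.24.

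Against macrophages without CD103, but not against those with it, P2ry2 and Ada passed: P2ry2, a receptor gene for ATP and UTP that neighbours P2ry6, was lower, at -1.68 ± 0.38, as was Ada, which deaminates adenosine, at -1.10 ± 0.22. Dpp4, whose surface protein binds adenosine deaminase in humans, was higher in DCs than in macrophages with CD103 by 1.86 ± 0.41. Adjusted p-values of these calls lay between 5.9e-06 and 0.049 in limma. None of the 27 passed in any GFP contrast. Of all genes, 1.58% passed in DCs, 0.0541% in macrophages with CD103 and 0.0271% in those without. An unadjusted p under 0.05 was found for 3 in DCs, 2 in macrophages with CD103 and 0 in those without, beside 15.4%, 9.2% and 6.16% of all genes. The smallest p-values were those of Entpd5 (-1.17 ± 0.39) and Ada (-0.76 ± 0.31) in DCs, followed by Slc29a1 (-0.53 ± 0.23). In macrophages with CD103 they were those of Ada (-1.13 ± 0.31), Entpd6 (0.42 ± 0.17) and Entpd8 (-0.42 ± 0.23), and in those without it of Ugp2 (1.02 ± 0.49), P2rx6 (0.78 ± 0.43) and Panx1 (1.00 ± 0.61).

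**Figure D4:**
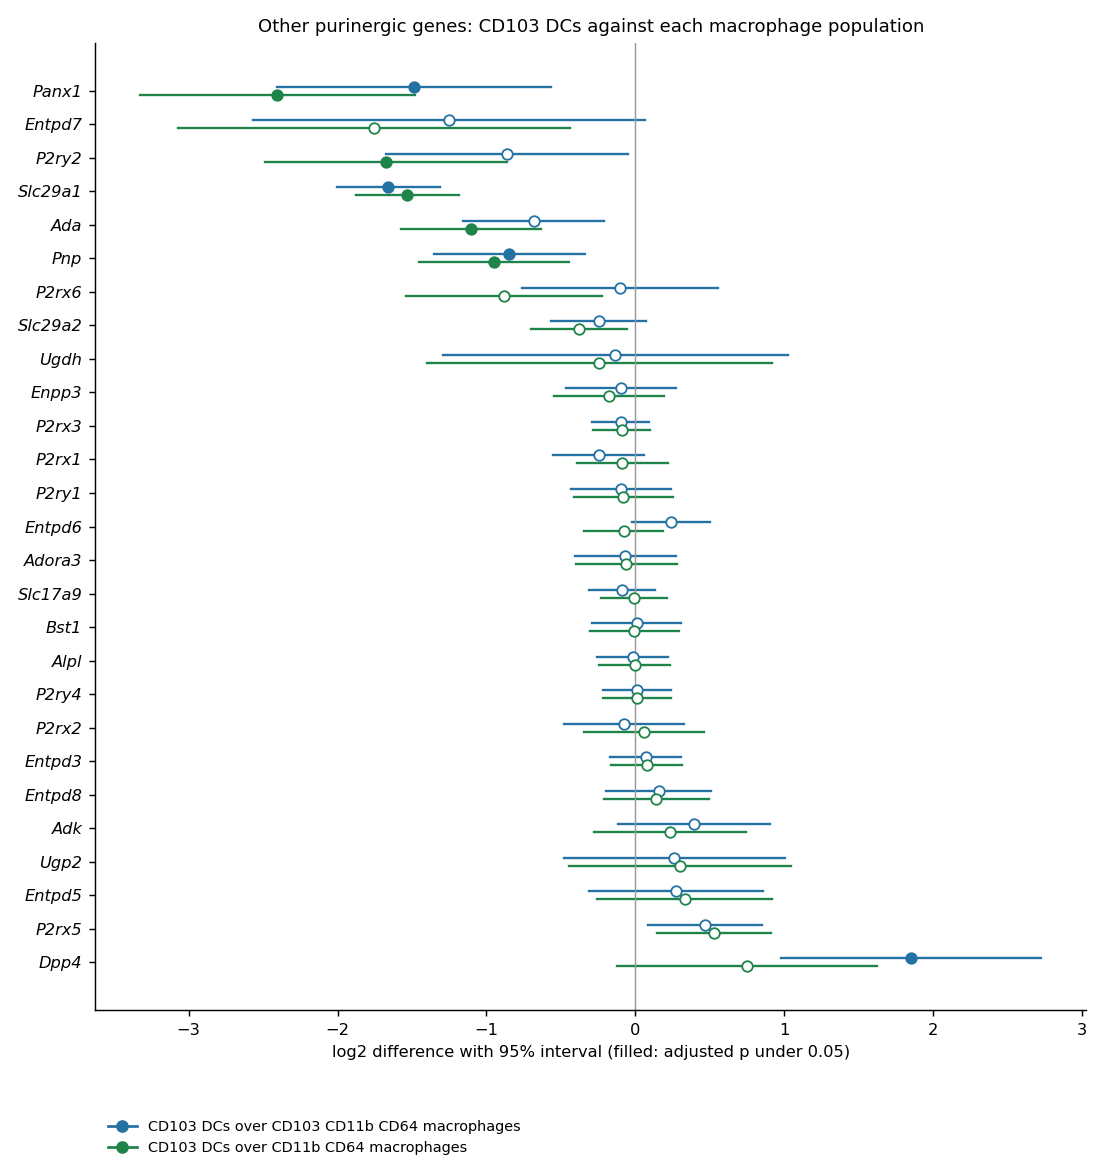
Points give the log2 difference of CD103 DCs from macrophages with CD103 (blue) and without it (green) for the 27 other purinergic genes, with 95% intervals; filled points have an adjusted p under 0.05 in limma. Panx1, Slc29a1 and Pnp are filled in both comparisons and lie below 0, and most of the rest lie close to 0.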

How the data were processed

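RNA of sorted cells (1 ng, amplified) was hybridised to 18 arrays, per the labels' protocols. The authors deposited log2 values for 33793 probes, each probe with its median over the arrays at 0. Base 2 was inferred (a single probe spans up to 10.15 units, where log10 of a scanner's range allows 4.82), and for summarisation, normalization and genome build the sources used here give nothing. Array medians lay between -0.0377 and 0.0494, with interquartile ranges of 0.256 to 0.578. The number of arrays limits the precision.

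Probes annotated to 1 symbol (23521) were averaged to 22180 genes; 1814 probes with several symbols and 8458 with none were left out. All arrays entered 1 limma fit (3.58.1, R 4.3.3) in which each group had its own mean, with empirical Bayes variances, two-sided p-values and Benjamini-Hochberg adjustment over all genes, for 8 contrasts and 1 interaction with the macrophages without CD103 that was added after the values were seen. The fit was tested on simulated data. The members, gene lists, motifs and contrasts were chosen with earlier results of these data known. All members were named, as were other purinergic genes that passed (otherwise those of smallest p in the GFP contrasts), and the 3 genes most like each member that passed. Alternatives were quantile normalization, median centring of arrays, fewer arrays in the fit, array weights, a replicate block, another probe rule, a filter on variation, robust variances and leaving out arrays.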

Additional observations from a re-analysis of the deposited data

Results flagged for a closer look

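P2ry14, P2ry12 and Entpd1 drew attention because all GFP-plus arrays lay below all GFP-minus arrays in DCs, and above them in macrophages without CD103. Some margins were narrow. In DCs the nearest GFP-plus and GFP-minus arrays were at -0.20 and -0.19 for Entpd1 and at -3.07 and -2.99 for P2ry12. In these macrophages they were at 1.14 and 1.08 for P2ry12. The separation in DCs alone was found for 11.5% of all genes and that in these macrophages alone for 9.63%. The share with both was not computed. The difference between both GFP effects, DCs minus these macrophages, was -4.67 ± 1.07 for P2ry14 (unadjusted p = 0.000651, adjusted p = 0.0696 in limma), -2.16 ± 0.89 for P2ry12 (adjusted p = 0.268) and -1.53 ± 0.56 for Entpd1 (adjusted p = 0.215). None passed, beside 0.532% of all genes, and this contrast was added after the opposite directions had been seen.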

How the results depend on the processing

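The 10 calls of lower P2ry13, P2ry12, P2rx4, P2rx7 and P2ry6 in DCs kept their direction under all 21 alternatives each. P2ry6 missed the threshold without the 4 arrays of lowest weight, an alternative added after seeing the data (-2.45 and -2.04, adjusted p = 0.0557 and 0.0885), and against macrophages without CD103 with fewer arrays in the fit. Quantile normalization gave smaller differences (-2.11 to -2.88 against macrophages with CD103, -1.78 to -3.16 against those without), all passing. Counts of members that passed were 5 to 6 and 5 to 5 when single arrays were left out. The count for GFP in DCs was 0 after quantile normalization, 0 with only DC arrays, and 0 to 0 when single arrays were left out. Over all genes 48, 85 and 118 to 711 passed in these fits, against 351 in the main fit. For GFP averaged over both macrophage populations the count was 1 with array weights, and 0 to 0 when single arrays were left out. Array weights raised the calls over all genes there to 654, from 92 in the main fit. For the interaction with the mean of both macrophage populations the count was 1 (P2ry14) with array weights, the filter on variation or without the 4 arrays. It was 0 to 1 with single arrays left out. Over all genes 681 passed with array weights, 456 with the filter, which tested fewer genes, and 323 without the 4 arrays. The main fit had 295. For the interaction with macrophages without CD103 the count was 1 (P2ry14) with array weights, that filter, without the 4 arrays or with fewer arrays in the fit. It was 0 to 0 with single arrays left out. Over all genes 438, 157, 115 and 249 passed in these fits, in that order, against 118 in the main fit. Same-numbered arrays deviated together (correlation over 0.1) in 13 of 45 pairs, with a range of -0.172 to 0.337. Arrays of different numbers were not compared, so these values cannot show whether the numbers pair arrays. The main fit treated the arrays as unpaired. With the replicate block, P2ry14 alone passed both interactions (1 member each, -3.47 and -4.67, adjusted p = 0.0498 and 0.0447), and the block changed no other call. Over all genes 473 and 196 passed these interactions with the block. For GFP in each macrophage population, and for macrophages with against without CD103, no alternative gave a call. Of 1174 alternative values of members that did not pass, 56 changed sign. Detection above background could not be assessed from centred values.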
